A study of Mus musculus with 4 samples.

Results

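The measurement described here is how p63 altered the response of fibroblasts to etoposide. It was taken gene by gene as the difference of differences, which is etoposide minus mock in p63 cells, minus etoposide minus mock in GFP cells. All 4 arrays of the series enter it, 2 per line, and 10698 of 19938 named genes were bright enough to be described. Signals are log2 values made by RMA, and 1 unit is a 2-fold change. A positive difference of differences means that the value after etoposide, relative to mock, lay higher in p63 cells than in GFP cells. With 1 array per condition there is no spread between replicates, so genes are described by size, no test was made, and a gene is called at a difference of differences of at least 1 in either direction.

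All 4 samples were mouse embryonic fibroblasts (MEFs) of C57BL/6 background, prepared at embryonic day 13.5, with a double knockout of BAX and BAK and transformed with SV40. Controls therefore share the knockout and the transformation. The groups were cells with a retrovirus expressing GFP, mock-treated or given etoposide, and cells with a retrovirus expressing p63, mock-treated or given etoposide. Treatment lasted 6 h, and the treatment protocol gives an etoposide dose of 10 µg/mL, while another label gives that number per microlitre. The species and isoform of p63, the number of embryos or clones behind each line and the promoter of the retrovirus have no entry in the labels and are not given here. The 4 readings of a gene are listed below with the GFP line first (mock, then etoposide), followed by the p63 line (mock, then etoposide). In RNA from whole cultures, fewer cells of a type and less RNA per cell cannot be told apart.

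p63 is a transcription factor related to p53 that specifies stratified epithelia, where it acts on keratin, desmosome and integrin genes, and it binds DNA motifs much like those of p53. Etoposide traps topoisomerase II on broken DNA. The breaks activate the kinase ATM, which acts on p53 and can also activate NF-kB. BAX and BAK, which both lines lack, open the outer mitochondrial membrane in apoptosis, and the large T antigen of SV40 binds p53 and the retinoblastoma protein.

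Trp63 read 4.87, 5.59, 8.75 and 9.29. Its reading was high on both arrays labelled p63 and below the brightness filter of 5.87 on both arrays labelled GFP, and its difference of differences was -0.18. Trp73, the other relative of p53, read 5.24, 5.59, 6.16 and 6.24, with a difference of differences of -0.28. Both its GFP readings were below the filter too. With dim readings raised to the filter, Trp63 and Trp73 had 0.54 and 0.08. Bak1 was below the filter on all 4 arrays, at 5.43, 5.41, 5.71 and 5.45, and whether its probes lie in the deleted part is not given. Bax and Trp53 were not analysed here. Of 15 fibroblast markers on the array, 11 reached the filter, among them Col1a1 and Vim with highest readings of 12.4 and 12.8, while Thy1, Pdgfra, Dcn and Lum did not. Of the markers of other cell types, 3 of 11 for simple epithelium, 1 of 11 for haematopoietic cells, 1 of 11 for endothelium, 4 of 10 for skeletal muscle, 2 of 9 for adipocytes and 3 of 10 for neural cells reached the filter. Epcam, Cdh1, Ptprc, Pecam1 and Adipoq, which define several of these types, stayed below it on all arrays.

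A difference of differences of at least 1 in size was found in 421 genes, which is 3.94% of those kept. It was positive in 304 (2.84%) and negative in 117 (1.09%). For 95% of the genes kept the size was under 0.939, and the middle 90% lay between -0.58 and 0.87. The median over all genes kept was 0.20 and not 0, with 69.3% of genes above 0. The split between directions depended on scaling. The share of positive calls was 72.2% in the deposited values, 19.8% with each array centred on its median (84 positive and 341 negative), 48.6% after quantile normalization (142 and 150) and 55.7% after cyclic loess (172 and 137). The corresponding medians of all genes were -0.10, -0.00 and 0.00. The list medians below are therefore to be read against 0.20, and those under another scaling against its own median.

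**Figure D1:**
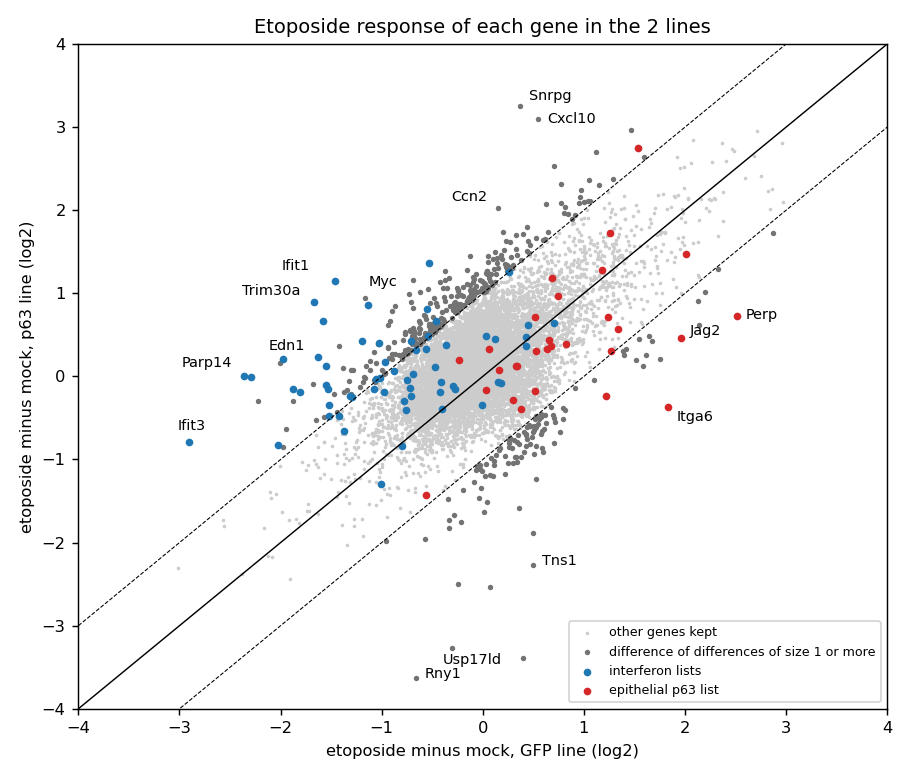
Etoposide minus mock in GFP cells (x axis, log2) against the same in p63 cells (y axis, log2) for the 10698 genes kept, 1 point per gene and 1 array per condition. The solid line marks equal responses and the dashed lines a difference of differences of 1 in size. Of 61 interferon genes (blue) 54 lie above the solid line (88.5%, against 69.3% of all genes kept), with Ifit1, Trim30a and Parp14 far above it. Itga6, Perp and Jag2 of the epithelial list (red) lie below it.

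The response that reached 1 differed between called genes. Etoposide minus mock reached 1 in size in GFP cells alone for 70 of the 421, in p63 cells alone for 142, in both lines in the same direction for 14, in opposite directions for 1 (Ifit1), and in neither line for 194. The mock-treated p63 reading of Ifit1 lay below the filter, at 5.39. Over all genes kept, 5.65% reached 1 in the GFP line and 7.61% in the p63 line. Etoposide differences of opposite sign, each of at least 0.75 in size, were found in 6 genes (0.0561%). The lines lay nearer to each other after etoposide than before it in 272 of the 304 positive and 103 of the 117 negative genes, and in 7280 of the 10698 genes kept. In the positive genes the median of p63 minus GFP was -1.12 before etoposide and 0.02 after it, and in the negative genes it was 1.01 and -0.25. Since the difference of differences is p63 minus GFP after etoposide less that before it, these values describe the called genes and support nothing about them. Individual genes departed from the medians, and the 29 called interferon genes described below still differed after the drug by -3.34 to -0.18. Of all genes kept, 6.18% differed by 1 between the mock-treated lines and 1.9% between the etoposide-treated lines.

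Because 4 readings make each value, it was asked which reading departed most from the others. The array of mock-treated p63 cells was the farthest from the median of the other arrays in 247 of the 421 genes (58.7%), against 36.9% of all genes kept, and the array of mock-treated GFP cells in 128 (30.4%), against 31.1%. By a stricter rule, in which an array lies at least 1 from each of the others while those lie within 0.5 of one another, the mock-treated p63 array stood apart in 65 called genes (49 positive and 16 negative). The mock-treated GFP array stood apart in 15, the etoposide-treated p63 array in 2 and the etoposide-treated GFP array in 1. Over all 10698 genes kept these counts were 78, 22, 2 and 1, in the same order. An array apart by this rule brings a large difference of differences with it, so the counts are tied to the calls. The count of 65 was 35 with centred arrays, 37 after quantile normalization and 35 after cyclic loess. The mock-treated p63 array also had the lowest median of the genes kept, 7.48 against 7.60 to 7.69, and the lowest SD over all probe sets, 2.28 against 2.37 to 2.40. Over the genes kept alone its SD was 1.498, and the lowest was 1.493, on the etoposide-treated GFP array. The part of the mock-treated p63 array in the results was not tested, and its role is given below for each group of genes.

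**Figure D2:**
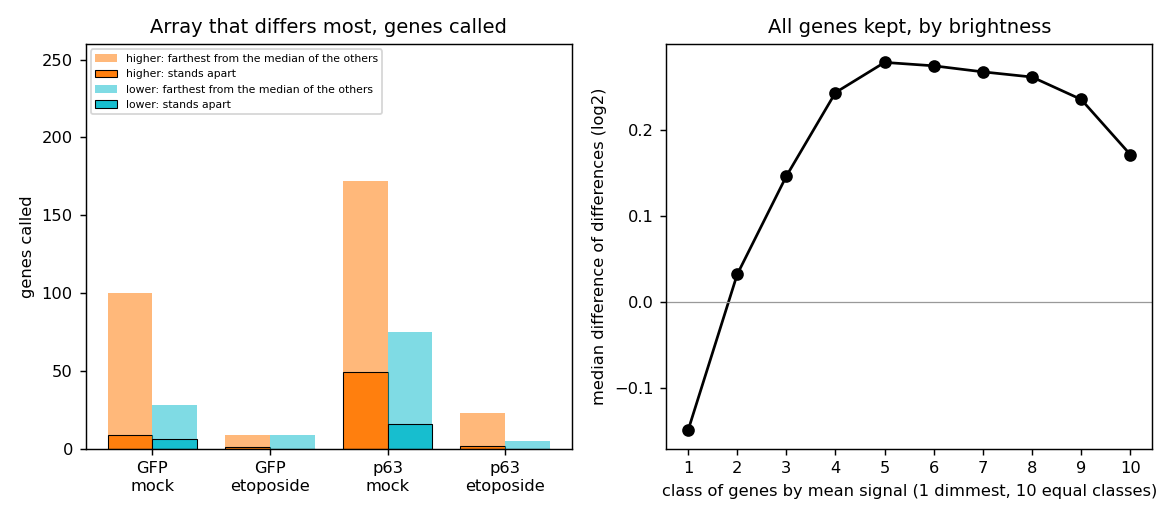
Left, number of called genes (y axis) in which each array (x axis) is the farthest from the median of the other arrays (light bars) or stands apart (outlined bars), for positive (orange) and negative (cyan) differences of differences. The mock-treated p63 array is the farthest in 172 positive and 75 negative genes. Right, median difference of differences (log2, y axis) in 10 equal classes of the genes kept by mean signal (x axis), which goes from -0.15 in the dimmest to 0.28 in the fifth and 0.17 in the brightest.

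Brightness moved with the value. The median difference of differences was -0.15 in the dimmest of 10 classes of genes by mean signal and 0.28 in the fifth, and 47 of the 117 negative genes were in that dimmest class. Only 45 of the 117 read at or above the filter on all arrays, against 212 of the 304 positive genes. With dim readings raised to the filter, 57 of the 117 and 249 of the 304 were still called.

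The interferon genes were the largest group of called genes among the 31 pathway lists. Type I interferon signals through the kinases JAK1 and TYK2 to a complex with STAT2 and IRF9, which binds the interferon-stimulated response element (ISRE) in promoters of antiviral genes. Of 61 genes kept on the 4 interferon lists, 29 had a difference of differences of at least 1 and 0 of -1 or less, and 54 lay above 0. Those shares were 47.5%, 0% and 88.5%, against 2.84%, 1.09% and 69.3% of all genes kept. The share above 0 was also high in some lists with hardly a call, such as ribosome biogenesis (94.3%) and S phase (89.6%). Counts of the lists below are to be set beside the same shares of all genes. The median of the 61 was 0.98 against 0.20 for all genes. In GFP cells their median etoposide difference was -0.80, with 27 members at -1 or less (2.12% of all genes kept), and in p63 cells it was -0.02. Their median of p63 minus GFP was -2.05 in mock-treated cells and -0.86 after the drug. In the GFP line 52 of the 61 read lower with etoposide, and in the p63 line 32 did, 1 of them (Ifit2) by at least 1. Both p63 readings were below the filter in 27 of the 61. The 61 are those that reached the filter of 92 listed and 75 on the array.

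The promoters of Ifit1 and Trim30a are shown because these interferon genes had the highest positive values among list members with an ISRE match in the window. The windows are the 250 bases before the transcription start in RefSeq (GRCm38.p6), at chr19:34640639-34640888 on the plus strand for Ifit1 and chr7:104465194-104465443 on the minus strand for Trim30a, written 5′ to 3′ along the gene. Capitals mark GAAANNGAAA, searched on both strands, here as its reverse complement.
Ifit1: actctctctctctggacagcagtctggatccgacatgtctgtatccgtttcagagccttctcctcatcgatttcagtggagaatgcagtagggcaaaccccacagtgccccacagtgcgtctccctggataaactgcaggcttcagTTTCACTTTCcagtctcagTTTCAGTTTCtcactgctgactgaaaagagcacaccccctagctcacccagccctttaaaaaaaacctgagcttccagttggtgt
Trim30a: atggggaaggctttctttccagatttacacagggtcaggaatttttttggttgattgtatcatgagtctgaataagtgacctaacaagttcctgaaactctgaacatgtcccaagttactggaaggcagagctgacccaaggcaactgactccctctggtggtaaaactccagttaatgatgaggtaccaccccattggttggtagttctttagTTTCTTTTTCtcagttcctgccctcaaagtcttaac

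The Ifit1 matches begin 104 and 85 bases before the start, and that of Trim30a begins 36 bases before it. Of the 29 interferon genes called, 21 were matched to 26 promoter windows, and 10 of these (38.5%) held the motif. Of windows of the other interferon genes kept, 4 of 32 (12.5%) held it, as did 13 of 260 windows (5.0%) of the positive genes outside the interferon lists, 257 of 10968 windows (2.34%) of the genes kept and 978 of all 32851 windows (2.98%). A match describes the letters and is no evidence of binding.

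In the IFIT and OAS families, whose products bind viral RNA or respond to it, 5 of 8 members were called. That is 62.5%, against 3.94% of all genes kept, and the median was 1.25. Ifit1, which binds viral RNA that lacks host cap methylation, read 10.11, 8.65, 5.39 and 6.55. With etoposide it differed by -1.46 in the GFP line and by 1.15 in the p63 line, a difference of differences of 2.61. Its mock-treated p63 reading lay below the filter, and the value was 2.14 with dim readings raised. Oasl2, a relative of the OAS enzymes, read 9.67, 7.70, 5.27 and 5.47 (2.18), and Ifit3 7.54, 4.64, 4.10 and 3.31 (2.11). In both, the mock-treated GFP reading stood well above the rest. Oas1a, an enzyme that makes the activator of RNase L, and its paralogue Oas1b had 1.42 and 1.09, and such close copies may share probes. Oas1b stood at 0.79 with centred arrays and 0.99 after quantile normalization. Ifit2, named after its values were seen because it departs from its family, read 7.78, 6.77, 7.78 and 6.49, equal in the mock-treated lines and lower after etoposide in both, with -0.29.

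Among the interferon-induced GTPases (the GBP, IRG and Mx families, which act on pathogens and on the vacuoles that hold them), all 5 members kept of 11 on the array were called, with a median of 1.68. Without the filter the 11 had a median of 0.41, and Iigp1 reached the filter on the mock-treated GFP array alone. Irgm1, a regulatory member, was at or above the filter on all arrays, at 10.08, 8.94, 6.74 and 7.60, and its difference of differences was 1.996. It was lower in GFP and higher in p63 cells after etoposide, and the lines did not overlap. Gbp3 read 9.46, 8.93, 4.93 and 6.30 (1.90), a value of 0.96 once its dim reading was raised to the filter. Iigp1, Mx2 and Gbp7 had 1.68, 1.37 and 1.17, with Iigp1 at 0.58 and Mx2 at 0.56 after dim readings were raised. The median of the 5 was then 0.96 with 2 of them called. Gbp7 stood at 0.88 with centred arrays and 0.996 after quantile normalization.

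The signalling factors and sensors had a lower median, 0.71 over 20 genes, and 4 were called. Stat2 read 8.33, 6.53, 6.00 and 5.81, with a difference of differences of 1.61. Ddx58, which encodes the RNA sensor RIG-I, read 10.16, 8.63, 7.40 and 7.25 (1.39), bright on all arrays. Dhx58, a relative of RIG-I, had 1.62, or 0.55 with dim readings raised, and Usp18, the protease that removes ISG15, had 1.02, or 0.72 to 0.74 under the other scalings. The kinase gene Jak1, outside the naming rule, was nearly level at 10.32, 10.05, 10.38 and 10.23 (0.12). The receptor chains Ifnar1 and Ifnar2, also outside the rule, had 0.74 and 0.23.

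Of the antiviral effectors 15 of 28 were called (53.6%, against 3.94% of all genes kept), with a median of 1.02. Trim30a, a RING-domain protein induced by interferon, read 8.46, 6.79, 3.67 and 4.56, a difference of differences of 2.56. Parp14, an ADP-ribosyltransferase, read 8.89, 6.53, 5.57 and 5.58 (2.38), and Rtp4, an interferon-induced chaperone of membrane receptors, 10.01, 8.43, 5.04 and 5.72 (2.25). In Parp14 the linear signal after etoposide was 0.19-fold that of mock in the GFP line and 1.01-fold in the p63 line. Both of its p63 readings lay below the filter, as did those of Trim30a and Rtp4. With dim readings raised, Trim30a, Parp14 and Rtp4 had 1.67, 2.37 and 1.58. Xaf1, which binds the apoptosis inhibitor XIAP, had 1.87. Ifi203 had 2.29 but only 0.14 with dim readings raised, since 3 of its 4 readings lay below the filter. Rnf213, a giant ubiquitin ligase that is not on the lists, read 10.88, 9.72, 7.89 and 8.83 (2.11), bright on all arrays and lower in GFP and higher in p63 cells after etoposide.

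In 0 of the 61 interferon genes did the mock-treated p63 array stand apart, against 78 of the 10698 genes kept. That rule needs the other arrays within 0.5 of one another. The median etoposide difference of the 61 was -0.80 in the GFP line, so few could meet it and the count is no result. The mock-treated p63 array was the farthest in 9, and the mock-treated GFP array in 44. All 29 called genes were lower with etoposide in the GFP line, with differences of -2.91 to -0.46, and 16 of them were higher and 13 lower with it in the p63 line. Both p63 readings were below the filter in 16 of the 29, where a fall could hardly be measured. Another set of 29, the interferon genes at or above the filter on all arrays, had a median of 0.58 with 10 called. With dim readings raised to the filter the 61 genes had a median of 0.74 with 24 called. Haematopoietic markers, 1 of 11 of which reached the filter, summed to 305 to 405 units of linear signal on the 4 arrays, with Ptprc below the filter on each. The direction held under each scaling. The median was 0.68, 0.79 and 0.83, with 18, 19 and 24 called and 0 negative, for centred arrays, quantile normalization and cyclic loess.

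**Figure D3:**
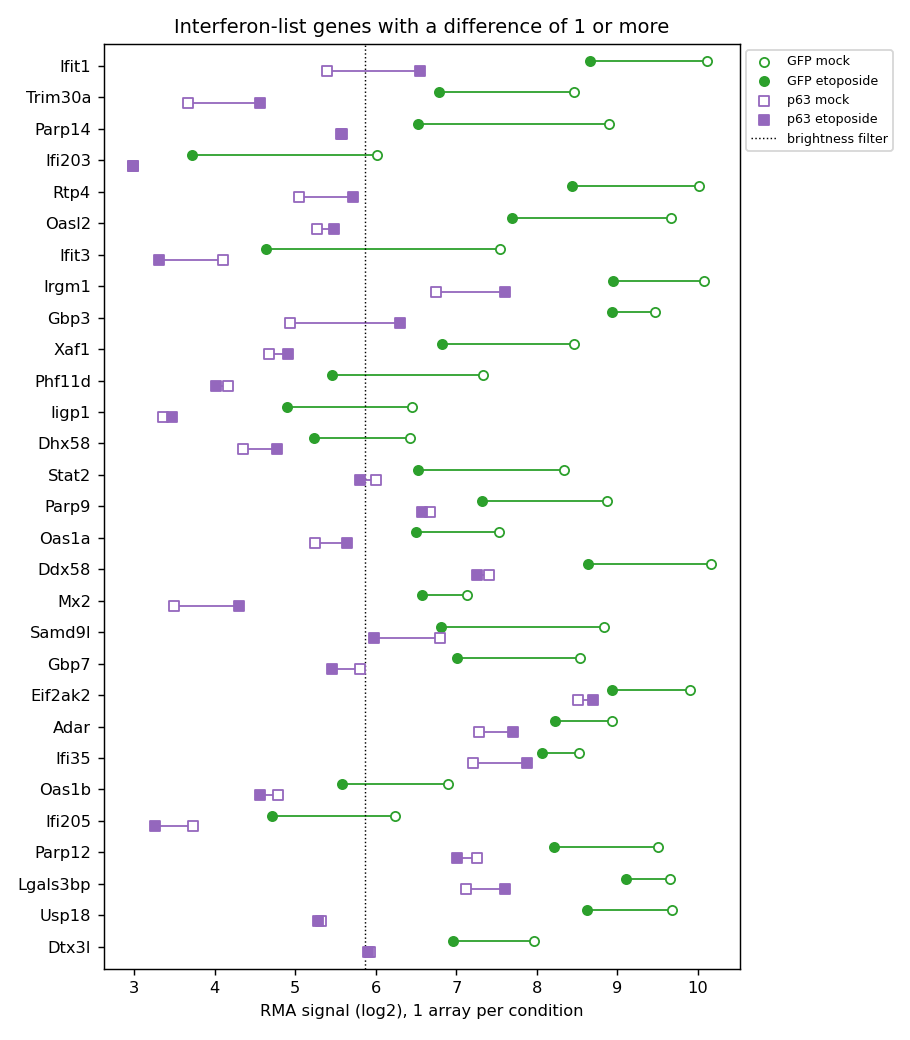
RMA signal (log2, x axis) of the 29 interferon-list genes with a difference of differences of at least 1, in GFP cells (green circles) and p63 cells (purple squares), mock-treated (open) and etoposide-treated (filled), 1 array each. The dotted line is the brightness filter of 5.87. In all 29 the filled green circle lies left of the open one, and in 16 both squares lie left of the filter.

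Epithelial genes of the p63 programme leaned the other way. Of 29 kept, 4 were called negative (13.8%, against 1.09% of all genes kept) and 1 positive (3.45%, against 2.84%). Above 0 lay 8 of the 29 (27.6%, against 69.3%), and the median of the 29 was -0.31. Their median etoposide difference was 0.67 in the GFP line, and 0.33 in the p63 line, where most already read higher before the drug. The median of p63 minus GFP was 1.63 in mock-treated cells and 1.60 after the drug. The 9 genes of this list at or above the filter on all arrays had a median of -0.44, with 3 above 0 and 3 called negative. The sign of the median over the 29 depended on the treatment of dim readings. With them raised to the filter the median was 0.07, with 17 of 29 above 0, while the count of negative calls was still 4. Centred arrays, quantile normalization and cyclic loess gave -0.60, -0.26 and -0.50, with 8, 5 and 6 negative calls. The mock-treated GFP array was the farthest in 17 of the 29 and the mock-treated p63 array in 4. Markers of simple epithelium summed to 354, 444, 486 and 405 units of linear signal, with Epcam and Cdh1 below the filter on each array. Of their 3 members kept, Krt8, a keratin of simple epithelia, was called negative at 5.97, 6.22, 6.98 and 5.93 (-1.29), and its part in the list's result was not tested.

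Itga6, the integrin chain of hemidesmosomes, read 6.96, 8.79, 10.86 and 10.50. With etoposide it differed by 1.83 in the GFP line and by -0.36 in the p63 line, and its difference of differences was -2.19, the lowest on the list. Perp, a desmosomal membrane protein and target of both p53 and p63, read 6.03, 8.55, 10.27 and 10.999 (-1.78). After etoposide the GFP readings of both genes were nearer to the p63 readings, which were already high in mock-treated cells, and stayed below them.

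Jag2, a Notch ligand, read 5.65, 7.61, 7.63 and 8.09 (-1.50). Anxa8, an annexin of stratified epithelia, read 7.72, 8.94, 11.62 and 11.39 (-1.45). In Jag2 the mock-treated GFP array stood apart, and the other readings lay close together. Nectin1, a cell adhesion gene outside the list, had a similar course at 6.03, 7.78, 8.32 and 8.54 (-1.54). Bnc1, the zinc finger gene basonuclin 1, read 4.08, 6.21, 6.57 and 7.18 (-1.52), a value that turned to 0.27 when its dim mock-treated GFP reading was raised to the filter. Zfp750, a transcription factor of epidermal differentiation, was the positive exception. It read 5.79, 7.32, 6.41 and 9.15 (1.21), higher after etoposide in both lines, and stood at 0.92 with centred arrays and 0.95 after cyclic loess.

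Some genes that stood far higher with p63 differed little in their etoposide response. Krt5 and Krt14, which encode the keratin pair of basal epidermal cells, read 5.21, 5.24, 9.89 and 9.72 and 5.21, 5.55, 10.15 and 10.27, with differences of differences of -0.20 and -0.21. These genes are outside the naming rule. Both stayed below the filter in GFP cells after etoposide, unlike Perp, Itga6 and Anxa8.

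The p53 targets read higher after etoposide in both lines by their medians. Their median etoposide difference was 1.27 in the GFP line and 1.48 in the p63 line. The median difference of differences over 42 genes was 0.32, or 0.03, 0.10 and 0.08 for centred arrays, quantile normalization and cyclic loess. Of the 42, 3 were called positive and 2 negative, together 11.9% against 3.94% of all genes kept. Perp, given above, was 1 of the negative genes. The other was Phlda3, an inhibitor of AKT, at 8.63, 10.15, 10.12 and 10.32 (-1.32), in which the mock-treated GFP array stood apart. Fas and Btg2, outside the naming rule, had -0.20 and -0.34, and Mdm2, the p53 ubiquitin ligase, read 9.99, 12.39, 9.71 and 12.29 (0.18).

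The positive p53 targets were Tap1, the peptide transporter of antigen presentation, Plk2, a polo-like kinase, and Epha2, an ephrin receptor. Tap1 read 8.01, 9.12, 6.40 and 9.09 (1.57), Plk2 11.50, 11.71, 10.57 and 12.09 (1.31) and Epha2 9.37, 10.18, 7.97 and 10.01 (1.22). In each, the mock-treated p63 reading was the lowest and the etoposide readings of the lines differed by at most 0.38. In all 3 the mock-treated p63 array was the farthest. Epha2 stood at 0.92, 0.96 and 0.97 under the other scalings. Inka1, a kinase inhibitor outside the list, resembled Phlda3, at 6.04, 7.65, 7.21 and 7.46 (-1.36).

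Immediate early genes, which are transcribed within minutes of a stimulus, had a median of 0.55 over 33 genes, with 25 above 0 (75.8% against 69.3% of all genes kept), 7 called positive (21.2% against 2.84%) and 0 negative. Their median etoposide difference was 0.27 in GFP and 0.82 in p63 cells. For centred arrays, quantile normalization and cyclic loess the medians were 0.26, 0.41 and 0.38, with 2, 3 and 3 positive calls. The medians of all genes were then -0.10, -0.00 and 0.00, against 0.20 in the deposited values. Ccn2, a matricellular protein and target of YAP, read 11.34, 11.49, 10.08 and 12.10 (1.87). It was level in GFP cells and 4.06-fold higher after etoposide in p63 cells. Myc read 10.83, 10.09, 9.03 and 10.03 (1.73), lower in GFP and higher in p63 cells after the drug, so that both lines met at one level. Both stayed called under each scaling.

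Klf5, a zinc finger factor, read 7.91, 7.75, 7.11 and 8.22 (1.26), and Ier2 7.65, 7.88, 7.03 and 8.35 (1.09). Fosl1, which encodes the AP-1 subunit FRA1, read 7.53, 8.48, 5.86 and 7.94 (1.13). Fos had 1.04 and Klf10 1.02. In 5 of the 7 called genes the mock-treated p63 array was the farthest, and in 7 of 7 its reading was below that of mock-treated GFP cells, with differences of -1.79 to -0.14. The stress factor Atf3, outside the naming rule, read 7.46, 9.44, 7.03 and 8.99, with a difference of differences of -0.02. The early genes thus did not share 1 course.

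NF-kB genes and the genes of secreted and adhesion factors held some of the bright positive values. The chemokine gene Cxcl10 read 10.43, 10.98, 7.05 and 10.15. It was 1.46-fold higher after etoposide in GFP cells and 8.56-fold higher in p63 cells, a difference of differences of 2.55, and the mock-treated p63 reading was the only one below 10. Of 15 secreted and adhesion genes kept, 5 were called positive (33.3%, against 2.84% of all genes kept) and 0 negative, with a median of 0.41. The others were Csf1, a macrophage growth factor, at 10.12, 10.23, 8.87 and 10.28 (1.31), Ptgs2, the inducible cyclooxygenase (1.20), Ccl2, a monocyte chemokine (1.07), and Vcam1, an adhesion receptor (1.03). In all 5 the mock-treated p63 array was the farthest, and in Csf1 it stood apart. With centred arrays 2 of the 5 were called, and 3 after quantile normalization or cyclic loess.

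The 19 NF-kB subunits and feedback inhibitors had a median of 0.30, or 0.00, 0.06 and 0.08 for centred arrays, quantile normalization and cyclic loess. Of these genes, 2 were called (10.5%, against 3.94% of all genes kept). They were the feedback inhibitors Tnfaip3, which encodes A20, and Nfkbia, which encodes IκBα, and both stayed called under these scalings. Tnfaip3 read 8.07, 7.70, 7.37 and 8.64 (1.65), lower after etoposide in GFP and higher in p63 cells. Nfkbia read 8.68, 9.73, 7.77 and 10.13 (1.31), higher in both lines and by more in p63 cells. The promoter of Tnfaip3, the called NF-kB gene with a match, is shown for the motif GGGNNTTCC, in capitals as its reverse complement 12 bases before the start. The window is chr10:19015411-19015660 on the minus strand (GRCm38.p6).
Tnfaip3: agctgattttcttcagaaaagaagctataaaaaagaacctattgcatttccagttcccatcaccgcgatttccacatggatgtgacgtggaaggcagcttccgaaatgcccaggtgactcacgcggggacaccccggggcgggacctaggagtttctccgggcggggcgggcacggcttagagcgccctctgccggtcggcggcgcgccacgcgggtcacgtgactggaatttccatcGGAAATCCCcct

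The motif was in 7 of 20 windows of the NF-kB list (35.0%), in 17 of 286 windows of all positive genes (5.94%), in 6.25% of windows of the genes kept and in 4.98% of all windows. The AP-1 motif TGANTCA was in 1 of 32 windows of the immediate early genes (3.12%), in 4.26% of windows of the genes kept and in 6.75% of all windows.

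Of 17 genes of ERK feedback, Dusp6 and Dusp1, phosphatases of MAP kinases, were called (11.8%, against 3.94% of all genes kept). Dusp6 read 7.89, 9.36, 6.86 and 9.82 (1.49) and Dusp1 8.92, 9.53, 7.91 and 9.56 (1.04). Both were higher after etoposide in both lines. Dusp1 stood at 0.75, 0.80 and 0.78 for centred arrays, quantile normalization and cyclic loess, so Dusp6 alone stayed called. The list's median was 0.24, near that of all genes.

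**Figure D4:**
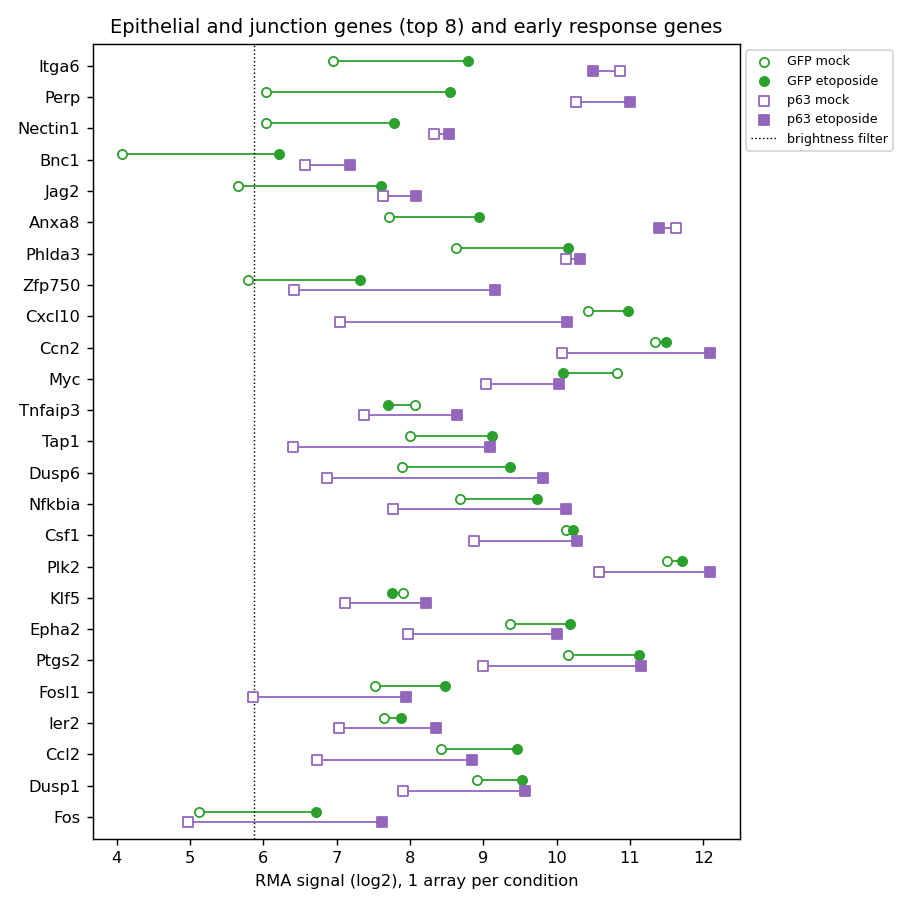
RMA signal (log2, x axis) of 8 genes from Itga6 to Zfp750 and 17 from Cxcl10 to Fos, drawn as for the interferon genes, 1 array per condition. The 8 are Itga6, Perp, Jag2, Anxa8 and Zfp750 of the epithelial list, Nectin1 and Bnc1 outside it, and the p53 target Phlda3. The 17 come from the immediate early, ERK feedback, NF-kB, secreted and adhesion, and p53 target lists. From Itga6 to Phlda3 the open green circle lies to the left of the other readings, and in Cxcl10, Ccn2, Tap1 and Csf1 the open purple square does.

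Genes of growth and division held few called genes. Above 0 lay 77.1% of G2/M, 87.8% of DNA repair, 89.6% of S phase and 94.3% of ribosome biogenesis genes, against 69.3% of all genes kept. The 48 G2/M genes had a median of 0.28 with 0 called in either direction, and the 41 DNA repair genes 0.31 with 0 called. Of 48 S phase genes, Cdt1, which licenses replication origins, was called, at 8.89, 9.17, 7.45 and 8.88 (1.15), and the mock-treated p63 array stood apart in it. Its value was 0.86, 0.89 and 0.88 for centred arrays, quantile normalization and cyclic loess, and no S phase gene was called positive under these. The 35 ribosome biogenesis genes had the next highest median after the interferon and immediate early lists, 0.52, with 33 above 0 and 0 called. That median was 0.22 to 0.26 under the other scalings. Nop56 and Nolc1, nucleolar proteins, were its largest members at 0.78 and 0.77. Cytosolic ribosomal proteins had 0.19, the level of all genes.

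Called genes of cell death were 1 of 15 in the BCL-2 family and 1 of 25 in the death receptor, caspase and necroptosis list, or 6.67% and 4.0% against 3.94% of all genes kept. In the BCL-2 family, which acts upstream of BAX and BAK, the median over 15 genes was -0.14 and 1 was called, the BH3-only gene Bid at 7.35, 6.67, 6.26 and 6.81 (1.24). Tnfrsf23, a decoy receptor for TRAIL, was the called member of 25 death receptor, caspase and necroptosis genes, at 7.40, 7.61, 6.56 and 7.92 (1.14). In the unfolded protein response, Ern1, which encodes the sensor IRE1, had 1.23 with the mock-treated p63 array standing apart, and the chaperone gene Dnajb9 had 1.08. Of these 4 genes, Bid kept its call after quantile normalization (1.04) and cyclic loess (1.07) and stood at 0.94 with centred arrays. The other 3 were under 1 with each scaling, at 0.78 to 0.99.

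Among the remaining lists, Nlrc5, a transactivator of MHC class I genes, was negative at 7.97, 8.67, 9.16 and 8.35 (-1.51). The call rests on 1 probe set. The other 18 had a median of -0.27, from -1.27 to 0.79, and in 15 of them the p63 line read higher after etoposide, unlike the probe set used. With the median of all its probe sets the value was -0.06. Of the other 12 MHC class I genes kept none was called negative, and the list's median was 0.39. Loxl1, an elastin crosslinking enzyme, was the called gene of the fibroblast matrix (1.09), and stood at 0.80 to 0.83 under the other scalings. Of 18 replication-dependent histones, H4c3 (-1.14, or -0.76 with dim readings raised) and H2bc14 (-1.02) were called, and the list's median was -0.01. In all, 12 of the 31 pathway lists had no called member. These were G2/M, DNA repair, autophagy, redox, lysosome, heat shock, cholesterol synthesis, actin and contractile genes, hypoxia, ribosome biogenesis, ribosomal proteins and oxidative phosphorylation. Their members nearest to a call were Uqcrc1, a subunit of respiratory complex III (0.98), Hspb1, a small heat shock protein (0.96), and Hsd17b7, an enzyme of cholesterol synthesis (0.94).

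**Figure D5:**
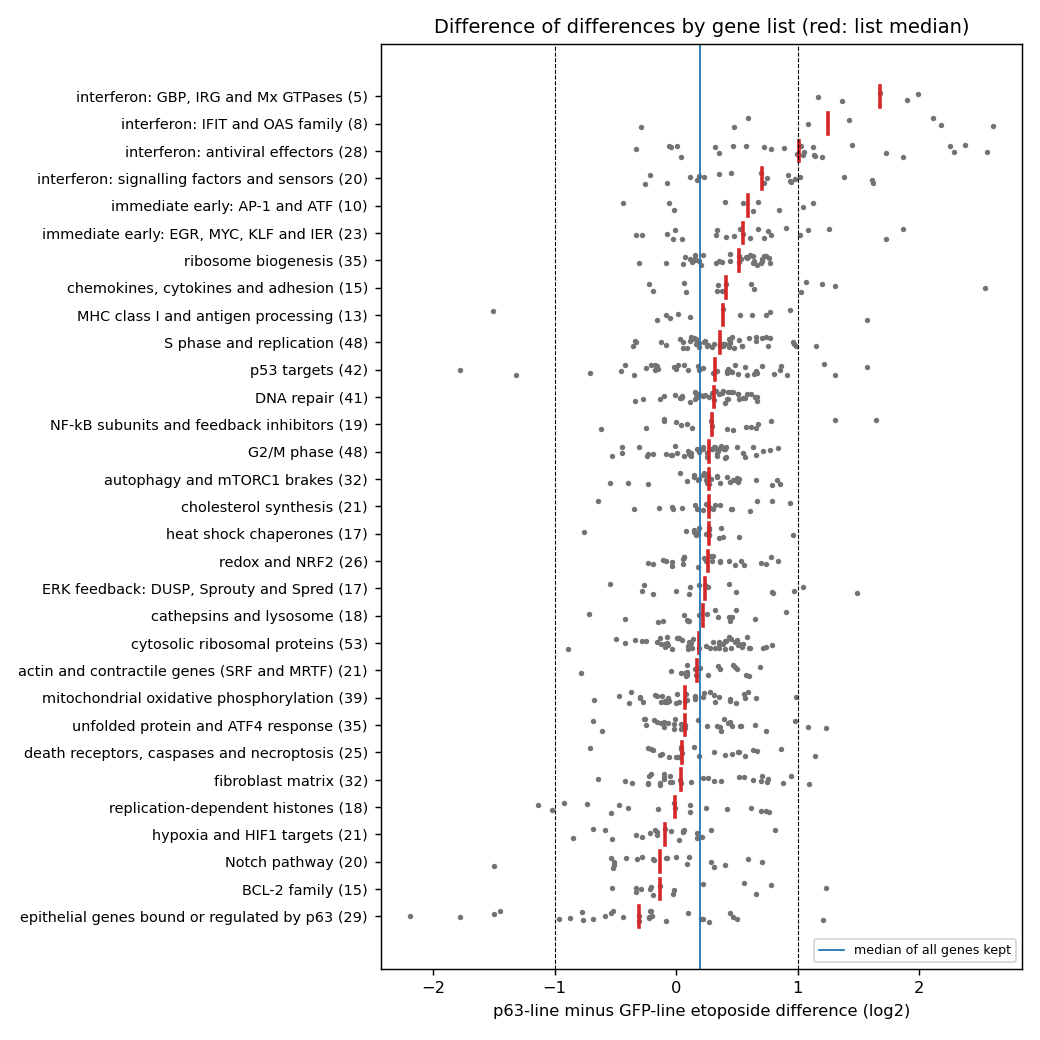
Difference of differences (log2, x axis) of every gene kept on each of the 31 pathway lists (y axis, number kept in brackets), with 1 grey point per gene, shifted vertically at random, and the list median in red. The blue line is the median of all genes, 0.20, and the dashed lines mark 1 and -1. The 4 interferon medians lie highest, from 0.71 to 1.68, and the epithelial median lowest, at -0.31.

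The highest value of all came from a gene outside the lists and from a single array. Snrpg, a core protein of spliceosomal snRNPs, read 9.70, 10.06, 6.60 and 9.86 (2.89), and its other probe set gave 0.34. Tmem97, an endoplasmic reticulum protein, behaved alike at 9.77, 9.65, 7.93 and 9.38 (1.57). In both, the mock-treated p63 array stood apart. Mt2, a metallothionein, read 8.85, 9.55, 6.53 and 9.05 (1.82). By contrast, Edn1, the vasoconstrictor endothelin 1, read 7.71, 5.70, 6.79 and 6.95 (2.17), and its low reading was that of etoposide-treated GFP cells. S1pr1, a sphingosine 1-phosphate receptor, read 8.24, 6.36, 6.46 and 6.17 (1.58), with the mock-treated GFP array apart. The other named genes with high values were Steap1 (1.60), Ginm1 (1.63), Ldah (1.59), Phlpp1 (1.36) and Trim12c (1.59, or 0.48 with dim readings raised). The etoposide-treated p63 array stood apart in Galnt6 (1.18, or 0.33 with dim readings raised) and Hoatz (1.07). Ehd2, a membrane-trafficking ATPase, was the called gene in which the etoposide-treated GFP array stood apart, at 9.10, 8.03, 9.17 and 9.10 (1.00, or 0.71 to 0.76 under the other scalings).

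Many of the lowest values came with the highest reading on the mock-treated p63 array, and several belonged to small non-coding RNAs. Perp, Nectin1 and Bnc1, also among the 12 lowest, read highest on the etoposide-treated p63 array. Usp17ld, of a family of near-identical deubiquitinase genes that may share probes, read 7.63, 8.02, 11.76 and 8.37 (-3.78). The Y RNAs, which bind the Ro protein, read 6.40, 5.73, 9.70 and 6.07 for Rny1 (-2.97) and 10.62, 10.69, 12.72 and 10.19 for Rny3 (-2.61). Both Y RNAs kept were called negative, as were 2 of 3 RNase P RNA genes and 7 of 46 snoRNAs (15.2%), where 1 snoRNA was positive, against 1.09% negative among all genes. Snord35a, named after its values were seen, read 6.87, 6.56, 9.78 and 6.51 (-2.96). The mock-treated p63 array read highest in each of these small RNAs named.

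Tns1, a focal adhesion protein, read 7.64, 8.14, 9.96 and 7.68 (-2.77), but its other 5 probe sets lay between -0.60 and 0.46. Myo18b, an unconventional myosin, had -1.95, with 18 of its other 19 probe sets below 0 and a median of -0.61. Of 28 called genes with several probe sets, the others had the same sign by their median in 22 and reached 1 in the same direction in 6. Vwa1, an extracellular matrix protein, had -1.51 and Ebpl, a relative of a sterol isomerase, -1.48. In both, the mock-treated p63 reading was the highest, as it was in Tns1 and Myo18b.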

How the data were processed

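Gene expression was measured on 4 arrays (Affymetrix Mouse Gene ST), and the virus and treatment named in each sample's labels gave its group. Per the labels' protocols, the total RNA came from a Trizol extraction and was amplified and labelled with biotin. The deposited log2 values were made by the authors with RMA, and the submitters' processing notes name Affymetrix Expression Console without a version. RMA equalises probe intensities across arrays, which removes most shifts shared by all genes. That the scale is log2 was read from the values and the method. The number of arrays limits the precision. One sample's place in the design text repeats etoposide-treated GFP cells, and its own labels (p63, etoposide) were used.

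Of 35512 probe sets, a platform annotation of 2016 named 21789 with 1 symbol and 1621 with more, and left out 12102. Of the 21789, 21698 matched RefSeq (GRCm38.p6) by Entrez identifier. Each gene was represented by its probe set of highest mean signal. Genes were kept where the highest reading reached the 50th percentile of these probe sets' values, 5.87. Computations used Python 3.11.15 with pandas 2.3.3 and R 4.3.3 with limma 3.58.1 for quantile normalization and cyclic loess, and were tested on simulated data. No replicate exists, so no p-value is given. Promoter windows came from RefSeq, and motifs were sought on both strands.

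The members and the gene lists were chosen with earlier results of these data known. Genes were named by a rule that took Trp63, Trp73, Trp53, Bax and Bak1, the 12 highest and 12 lowest values, and the 10 highest and 10 lowest among genes at or above the filter on all arrays. It added up to 5 called members per list and direction (or the 2 of largest size), up to 5 per array standing apart, and up to 8 with opposite responses. Clone or predicted names, olfactory and vomeronasal receptors and numbered small RNAs were only counted. Results were recomputed unfiltered, with a 75th-percentile filter (7.82), with a filter on all 4 readings, with dim readings raised to the filter, with the median over probe sets per gene, with centred arrays, quantile normalization or cyclic loess, and with thresholds of 1.5-fold and of 1.5 on the log2 scale.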

Additional observations from a re-analysis of the deposited data

Results flagged for a closer look

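In 6 genes the etoposide differences had opposite signs in the lines, each of at least 0.75 in size, lower in GFP and higher in p63 cells. The difference between the lines was not tested, since there is 1 array per condition. The differences of differences were 2.612 for Ifit1, 2.56 for Trim30a, 2.106 for Rnf213, 1.996 for Irgm1, 1.719 for Ly96 and 1.693 for Tmem106a. Of these, only Rnf213 and Irgm1 read at or above the filter on all arrays. Both p63 readings of Trim30a lay below it. With dim readings raised its value was 1.67, the size of its difference in the GFP line (-1.67). The mock-treated p63 reading of Ifit1 was also below the filter, and its value was 2.14 with dim readings raised. Ly96, which encodes the MD-2 partner of the receptor TLR4, read 6.45, 5.58, 4.998 and 5.85, and Tmem106a, a transmembrane protein gene, 6.32, 5.42, 5.08 and 5.87. Both were dim, with values of 0.58 and 0.45 once readings were raised to the filter.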

How the results depend on the processing

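No paired analysis was possible because each condition has 1 array and the labels carry no replicate numbers, and no array can be left out without losing the difference of differences. The count of 304 positive genes was 175 with the 75th-percentile filter, 84 with centred arrays, 142 after quantile normalization, 172 after cyclic loess, and 1782 and 42 at thresholds of 1.5-fold and of 1.5 on the log2 scale. The count of 117 negative genes was 448 without a filter, 36 with the stricter filter, 45 where all readings had to reach the filter, 62 with dim readings raised, 341 with centred arrays, and 529 and 19 at these thresholds. Centred arrays kept 84 of the 304 and 117 of the 117, and cyclic loess 143 and 82. Centring lowered the value of every gene by the same amount, so no negative call could be lost with it. The 65 genes with the mock-treated p63 array apart were 35, 37 and 35 for centred arrays, quantile normalization and cyclic loess. The 142 genes with a response in p63 cells alone were 92 after cyclic loess, and the 194 with a response in neither line were 499 without a filter, 117 after quantile normalization and 127 after cyclic loess. With centred arrays the median of immediate early genes was 0.259, of interferon signalling genes 0.416 and of the epithelial list -0.601, which was -0.496 after cyclic loess. That epithelial median reversed to 0.072 with dim readings raised, as did Bnc1 (0.271). The GTPase median was 0.414 without a filter, over more genes, and 0.958 with dim readings raised. Beyond the shift that centring gave to every gene, the causes were not tested. Of 116 named genes kept, 23 lost their call and 6 gained one with centred arrays, 17 and 3 after quantile normalization, and 16 and 3 after cyclic loess, with 0 reversed under these scalings. Signals near the filter limit what can be measured in both directions.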

Other observations

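The probe sets left out of the gene-level description behaved differently. Of 5088 probe sets that the annotation does not list and that reached the filter, 492 had a difference of differences of at least 1 and 466 of -1 or less, which is 18.8% against 3.94% of named genes. The mock-treated p63 array stood apart in 161 of them. Of 823 probe sets with several gene symbols, 4.5% reached 1 in size, 15 positive and 22 negative.

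Among other small RNAs, some read nearly level and some resembled the Y RNAs. Rmrp, the RNA of RNase MRP, read 11.21, 11.28, 10.90 and 11.16, and Rn7sk, which holds the elongation factor P-TEFb inactive, 13.42, 13.39, 13.32 and 13.52. Their differences of differences were 0.18 and 0.22. Rpph1, the RNA of RNase P, read 12.43, 12.51, 13.15 and 12.54, and its relatives Rprl1 and Rprl2 had -1.55 and -1.18. These 3 read highest on the mock-treated p63 array, as did Snord15a (-1.53) and Snord55 (-1.42).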
